A study of Mus musculus with 6 samples.

Results

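Alpha-defensins, called cryptdins in the mouse, are small cationic peptides that kill bacteria by disrupting their membranes. In the mouse gut they are made by Paneth cells, which sit at the base of small intestinal crypts, store the peptides in secretory granules and release them into the crypt lumen. The peptides are translated as inactive precursors, which the metalloproteinase matrilysin (Mmp7) cleaves to the active form. Unlike human neutrophils, mouse neutrophils do not store alpha-defensins.

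The alpha-defensin probe sets were taken as every probe set whose annotated symbol field held a symbol starting with Defa. They numbered 5 of the 45037 probe sets tested. Of these, 3 were annotated to 1 gene (Defa3, Defa31 and Defa39) and 2 to several, 1 to Defa22 and Defa21 and 1 to Defa30 and Defa24. The RNA came from epithelial cells of the gut of C57BL/6 mice, with 3 animals that carried the floxed casp8 gene and the villinCre transgene (deleted arrays) and 3 that carried the floxed gene without Cre (control arrays). Villin drives Cre in epithelial cells of the gut, so floxed casp8 is the allele of both groups and Cre is what differs. Each animal gave 1 array, and the values are log2 expression made by RMA, which puts arrays on a common scale and gives each probe set 1 value. The labels used here state no age, sex or gut segment.

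The array read out the family only in part. The RefSeq gene table lists 28 protein-coding alpha-defensin genes in 1 cluster on chromosome 8, of which 7 were named by the 5 probe sets. In the order of the cluster, Defa30, Defa22 and Defa31 are neighbours at places 6, 7 and 8, Defa21 is the first gene, Defa3 is at place 11, and Defa39 and Defa24 are the last, at places 27 and 28. The probe sets for Defa31, Defa39 and for Defa30 and Defa24 have the manufacturer's suffix _x_at, which marks probes that may bind related transcripts. With genes this similar, a probe set's value may sum several cryptdins, and it is named below by its annotation only.

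The table of RefSeq upstream sequences used here (GRCm38.p6) has entries for 4 of the 7 genes, which are shown because they let the region before the start be compared between genes. Each sequence gives the 250 bases before the annotated start on the plus strand, 5′ to 3′. Capitals, which do not overlap, mark ATCAAAG, the core letters recognised by TCF/LEF factors of the Wnt pathway, and TATAAA, the letters of a TATA box. The sequences are Defa22 at chr8:21162027-21162276, Defa30 at chr8:21134400-21134649 and Defa31 at chr8:21191323-21191572.
Defa22: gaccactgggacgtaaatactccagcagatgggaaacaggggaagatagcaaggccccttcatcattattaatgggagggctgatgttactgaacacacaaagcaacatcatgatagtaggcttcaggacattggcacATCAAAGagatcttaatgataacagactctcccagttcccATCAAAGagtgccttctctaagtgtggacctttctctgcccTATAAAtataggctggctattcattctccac
Defa30: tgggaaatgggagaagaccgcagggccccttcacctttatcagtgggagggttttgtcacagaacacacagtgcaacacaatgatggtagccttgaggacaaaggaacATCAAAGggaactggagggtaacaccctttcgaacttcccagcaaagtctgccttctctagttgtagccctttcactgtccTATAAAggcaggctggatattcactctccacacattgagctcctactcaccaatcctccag
Defa31: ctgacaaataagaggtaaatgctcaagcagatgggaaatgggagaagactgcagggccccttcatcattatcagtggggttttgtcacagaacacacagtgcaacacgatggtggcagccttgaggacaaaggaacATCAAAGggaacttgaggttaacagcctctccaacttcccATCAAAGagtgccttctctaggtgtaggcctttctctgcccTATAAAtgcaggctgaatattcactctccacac
The sequence of Defa21, at chr8:21025295-21025544, was identical to that of Defa22 over all 250 bases. Over all alignment columns, gaps included, Defa22 was identical to Defa31 at 78.3% and to Defa30 at 61.8%, and Defa30 to Defa31 at 70.8%. TATAAA began 61 bases before the annotated start in Defa30, against 31 in Defa22 and 33 in Defa31. The Defa30 window is thus offset from the others, and its shares count the unpaired columns. ATCAAAG, searched on both strands, occurred at 2 places in Defa21, Defa22 and Defa31 and at 1 place in Defa30. It was present in 13 of the 16 alpha-defensin windows in the table, against 3.21% of all 32851 windows of this length, and at 2 or more places in 9 of the 16, against 0.0822% of all windows. TATAAA, also on both strands, was present in 15 of the 16 and in 12.4% of all windows. The 16 windows are copies of one family and do not count as independent.

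Facts of the whole series that touch these values are the following. Casp8, the targeted gene, read 9.27, 9.56 and 10.40 in deleted replicates 1, 2 and 3, against 10.53, 9.74 and 10.24 in control replicates 1, 2 and 3. Its difference of −0.43 (SE 0.31, limma adjusted p = 0.57) did not pass; the sources used here do not say which exons were floxed, so the probe set cannot check the genotypes. The 10 pan-epithelial markers measured (Epcam, Vil1 and keratins among them) were bright, with means of 12.07 to 12.17 in the deleted arrays and 12.05 to 12.21 in the controls. Limma called 0 of them, with 3 at an unadjusted p under 0.05, which 6357 of all 45037 probe sets had. The 24 probe sets of poly-A RNA added to each sample averaged 7.40 to 8.07 in the deleted arrays and 8.31 to 9.09 in the controls. Gapdh was read near both transcript ends, and the excess of the 3′ over the 5′ value, larger in degraded RNA, was 0.21 to 0.29 in the deleted arrays, against 0.68, 0.93 and 0.22 in control replicates 1, 2 and 3. Deleted replicate 1 stood apart in endothelial markers, with a mean of 6.31 over 8 genes, against 3.86 and 3.91 in the other deleted arrays and 3.65 to 4.08 in the controls.

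In the arrays labelled as caspase-8 deleted, the 3 bright alpha-defensin probe sets fell to between 23.3% and 35.0% of their control signal. The 2 dim ones did not pass the test. The falls were 4.30-fold for Defa22 and Defa21, 4.14-fold for Defa39 and 2.86-fold for Defa30 and Defa24. In limma, fitted on all 45037 probe sets with Benjamini-Hochberg adjustment, 3 of the 5 were called lower and 0 higher at adjusted p under 0.05. Over all probe sets, 0.318% were called (143), 0.211% lower (95) and 0.107% higher (48). The median difference was −1.52 over the 5 alpha-defensin probe sets and 0.012 over all probe sets.

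The Defa39 probe set read 11.92, 11.50 and 11.07 in deleted replicates 1, 2 and 3, against 13.57, 13.56 and 13.50 in the control replicates. The deleted arrays spread over 0.85 log2 units and the controls over 0.062, and the groups were 1.58 apart at their nearest. The mean was 11.50 ± 0.43 in deleted cells and 13.54 ± 0.03 in controls (SD, n = 3 each), a log2 difference of −2.05 (SE 0.20, 95% confidence interval −2.51 to −1.58, limma adjusted p = 0.00743). Defa39 is a gene of the CRS1C type, the cryptdin-related sequences, by its RefSeq synonyms.

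The probe set of Defa22 and Defa21 read 11.48, 11.22 and 10.88 in the deleted replicates, against 13.42, 13.15 and 13.33 in the controls. All 3 deleted arrays lay at least 1.67 below the lowest control. The mean was 11.20 ± 0.30 in deleted cells and 13.30 ± 0.14 in controls (SD, n = 3 each), a log2 difference of −2.10 (SE 0.17, 95% confidence interval −2.49 to −1.72, limma adjusted p = 0.00375). It is the only one of the 3 without the _x_at suffix, and it still carries 2 genes, whose upstream windows could not be told apart by sequence.

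The probe set of Defa30 and Defa24 read 12.19, 12.07 and 11.89 in the deleted replicates, against 13.71, 13.44 and 13.55 in the controls. Its arrays were close within each group, and the groups were 1.25 apart at their nearest. The mean was 12.05 ± 0.15 in deleted cells and 13.57 ± 0.14 in controls (SD, n = 3 each), a log2 difference of −1.52 (SE 0.13, 95% confidence interval −1.82 to −1.21, limma adjusted p = 0.00477).

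The other pair of probe sets had low signals, which are not comparable between probe sets as amounts of transcript. Defa31, of the CRS4C type by its synonyms, read 5.33, 5.20 and 5.19 in the deleted replicates, against 5.77, 5.45 and 5.67 in the controls. The groups did not overlap, with 0.12 between their nearest arrays, and the log2 difference of −0.39 (SE 0.13) did not pass (limma adjusted p = 0.242). Defa3 read 3.20, 2.94 and 3.23 in the deleted replicates, against 3.20, 3.20 and 3.08 in the controls, so the groups overlapped. Its difference was −0.039 (SE 0.12, 95% confidence interval −0.32 to 0.25, limma adjusted p = 0.913), and its mean lay above those of only 20.7% of probe sets. In 4 of the 5 alpha-defensin probe sets every deleted array lay below every control array, which was so in 9.75% of all probe sets; groups were apart in either direction in 19.8%. RMA pulls dim signals to a common floor and the table holds no detection calls, so a small difference of Defa3 or Defa31 does not show that their transcripts kept their level.

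**Figure D1:**
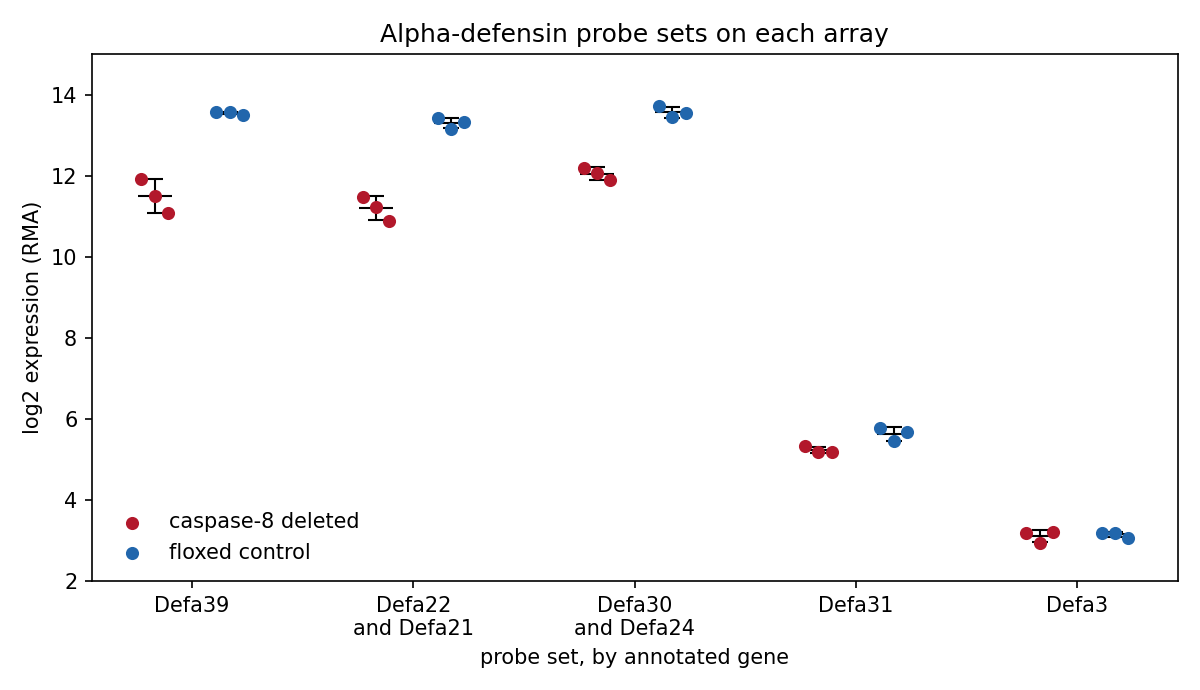
Log2 expression (RMA, vertical axis) of the 5 alpha-defensin probe sets on each array, deleted animals in red on the left and controls in blue on the right of each pair. Points are arrays, and black bars are the mean ± SD of 3. The 3 probe sets on the left read 13.15 to 13.71 in every control and 10.88 to 12.19 in every deleted array, while Defa31 and Defa3 stay below 6 in all arrays.

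The 3 bright probe sets were near the top of the array's scale. By brightness rank among the 45037 probe sets, with 1 the brightest, Defa39 stood at 449 to 1043 in the deleted arrays and 14 to 19 in the controls. Defa22 and Defa21 stood at 689 to 1208 in the deleted arrays and 24 to 51 in the controls, and Defa30 and Defa24 at 310 to 482 in the deleted arrays and 8 to 21 in the controls. The brightest probe set of any array read 14.1. Folds given here are ratios of signal, and whether signal so near the top still tracks the amount of transcript was not tested.

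Other probe sets of that brightness were set beside them. Of the 71 probe sets with a control mean of at least 13, a limit chosen after the values were seen, 8 were lower by 1 or more. All 8 were called, while the median difference of the 71 was 0.040. The limit used the control level only, so probe sets bright in the deleted arrays alone could not enter. All 8 had a mean below 13 in the deleted arrays and entered through the controls. The 8 were the 3 alpha-defensin probe sets, 2 of lysozyme (Lyz1), 1 of angiogenin 4 (Ang4) and 2 that the annotation used here pairs with no gene. Of the unnamed pair, 1 read 12.04, 11.73 and 11.47 in the deleted replicates and 13.34, 13.32 and 13.30 in the controls. The other read 12.07, 11.88 and 11.73 in the deleted replicates and 13.58, 13.35 and 13.52 in the controls. Their log2 differences were −1.57 and −1.59 (limma adjusted p = 0.00743 and 0.00444), and they were not counted as alpha-defensins.

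**Figure D2:**
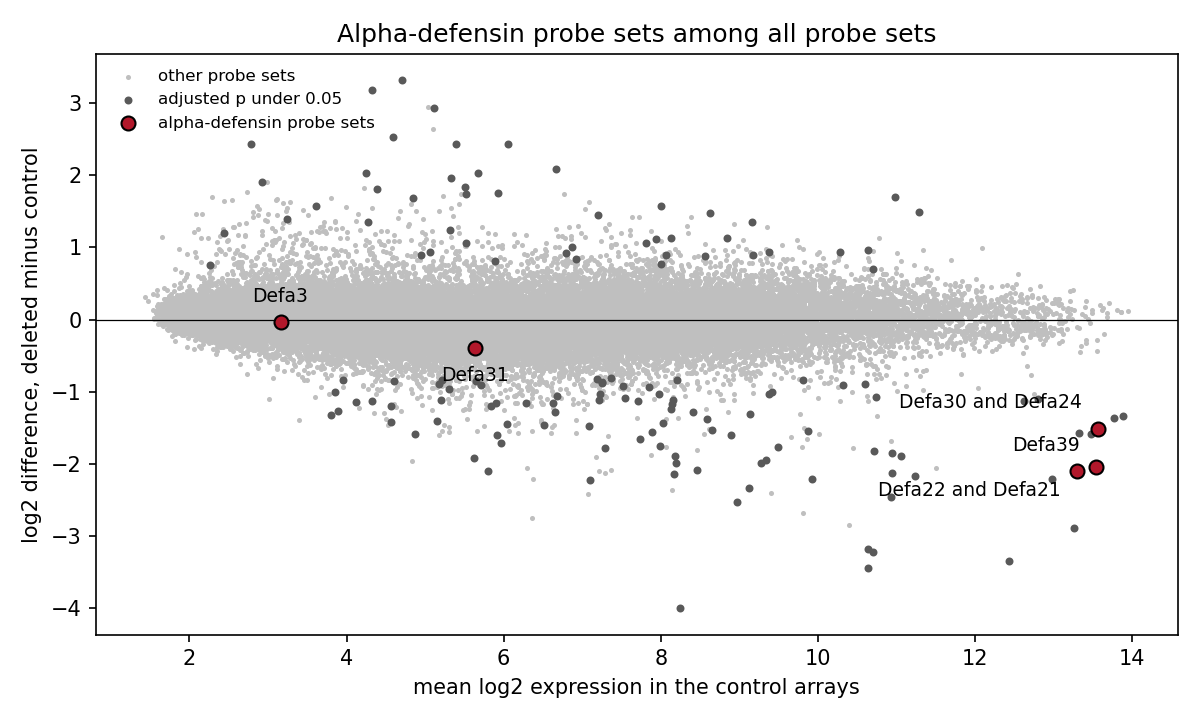
Log2 difference, deleted minus control, against the mean log2 expression in the controls for all 45037 probe sets. Light grey points are probe sets that did not pass, dark grey points passed adjusted p of 0.05 and red points are the alpha-defensins. The 3 bright ones lie at −2.10, −2.05 and −1.52 at the right edge. There, 5 other probe sets with a control mean of at least 13 also fell by more than 1 log2 unit, Ang4 the most at −2.89. That limit, on the control mean alone, leaves out probe sets bright only in the deleted arrays.

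The sizes of the falls of the 3 bright probe sets were compared with each other, by a test that with 3 arrays against 3 cannot pass 0.05. Within each array, the value of Defa22 and Defa21 minus that of Defa30 and Defa24 was −0.71, −0.85 and −1.01 in the deleted replicates and −0.29, −0.29 and −0.22 in the controls. The change of the first thus exceeded that of the second by 0.59 log2 units, and the groups did not overlap. For Defa39 minus Defa30 and Defa24 these values were −0.27, −0.57 and −0.82 in the deleted replicates and −0.15, 0.12 and −0.043 in the controls, a difference of −0.53. Defa39 and the probe set of Defa22 and Defa21 differed in their change by 0.056, with within-array values of 0.30 ± 0.13 in deleted cells and 0.25 ± 0.14 in controls (SD, n = 3 each). In all, 10 pairs were compared by a two-sided exact permutation test, whose smallest possible p with 3 against 3 is 0.1. Of them, 8 reached it (exact p = 0.1, 0.125 adjusted over the 10 pairs), while Defa39 against Defa22 and Defa21 gave p = 0.5 and Defa3 against Defa31 p = 0.2. Only 2 of the 8 are between bright probe sets, and the other 6 set a bright probe set against Defa31 or Defa3. With a smallest possible p of 0.1, this test cannot decide whether the falls differ in size between alpha-defensin probe sets.

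Among the deleted animals the bright probe sets kept 1 order. Replicate 1 was highest and replicate 3 lowest in all 3 of them, and in 4 of the 5 alpha-defensin probe sets; this order held in 19.7% of all probe sets. The spiked controls had it too, at 8.07, 7.96 and 7.40 in deleted replicates 1, 2 and 3, and their part in the order was not tested. Without deleted replicate 1, the array that stood apart in endothelial markers, the 3 probe sets were still called, at differences of −2.26, −2.25 and −1.59. Control replicate 3, whose Gapdh difference lay in the range of the deleted arrays, read 13.50, 13.33 and 13.55 for Defa39, for Defa22 and Defa21 and for Defa30 and Defa24, the lowest control value for Defa39 and the middle one for the other two. Without control replicate 1 or without deleted replicate 2, none of the 3 was called (limma adjusted p = 0.0503 to 0.0765 and 0.0528 to 0.0722), and without control replicate 2 Defa39 was not (adjusted p = 0.0565), with differences of −2.12 to −1.44 for the calls lost. With the Gapdh difference as a covariate none was called either (adjusted p = 0.0502 to 0.112), at differences of −2.15 to −1.54.

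Most of the measured Paneth granule effectors outside the defensins were lower. Of 10 listed genes 7 were measured, of which 5 were called lower, 0 higher and 2 neither (median difference −1.89). Mptx1, a mucosal pentraxin, was 9.29-fold lower and Ang4, an antimicrobial ribonuclease, 7.43-fold lower. Itln1, an intelectin that binds microbial sugars, was 4.61-fold lower, and the transcript of Pla2g2a, a phospholipase gene, was 3.71-fold lower. Lyz1, the lysozyme of Paneth cells, read 12.66, 12.55 and 12.46 in the deleted replicates and 13.94, 13.82 and 13.90 in the controls, a difference of −1.33 (SE 0.11, limma adjusted p = 0.0045). The lectins Reg3g and Reg3b, which enterocytes make too, stood at −0.36 and −0.44 and were the 2 that did not pass.

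The fall of the alpha-defensins was set against that of these effectors with 1 value per array, the mean of the centred defensin values minus that of the effectors. With all 5 probe sets it was 0.27 ± 0.08 in deleted cells and −0.27 ± 0.17 in controls (SD, n = 3 each), a difference of 0.54 (two-sided exact permutation p = 0.1, the smallest possible). With the 3 bright probe sets alone, a choice made after the values were seen, the difference was −0.13 (exact permutation p = 0.5), so that it turned its sign on whether the 2 dim probe sets were counted. The 3 bright ones are those called lower, whereas the effectors include genes that were not called. In bulk RNA, fewer Paneth cells and less of these transcripts per Paneth cell cannot be told apart.

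**Figure D3:**
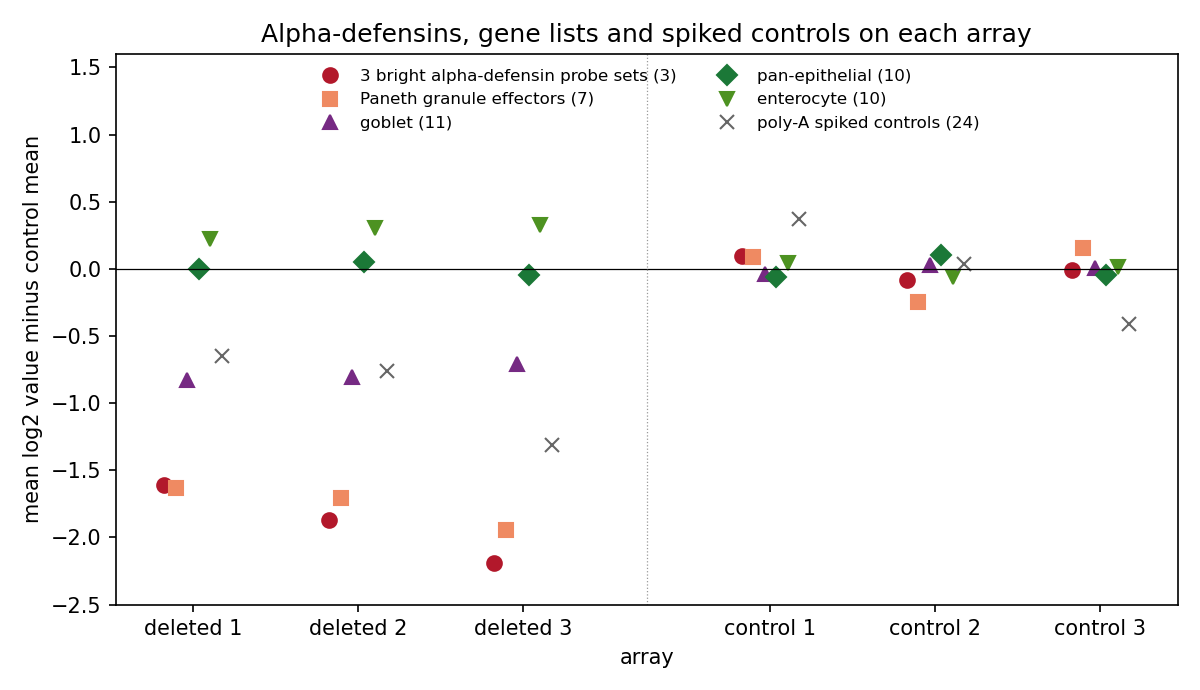
Mean log2 value of each set minus its mean over the 3 controls (vertical axis), on each of the 3 deleted and 3 control arrays; the number of probe sets in a set is in brackets, and points are shifted sideways to stay apart. The 3 bright alpha-defensin probe sets read −1.61, −1.87 and −2.19 in the deleted arrays and the granule effectors −1.63, −1.71 and −1.94, while pan-epithelial genes stay between −0.059 and 0.10. The 3 bright probe sets are the alpha-defensins that were called lower, whereas the effectors are all those measured, called or not.

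Of the genes that process defensins or serve Paneth cell secretion, limma called 2 of 17 lower and 0 higher, and 15 did not pass (median −0.053). In either direction, 7 of the 17 had an unadjusted p under 0.05 in limma, against 6357 of all 45037 probe sets. Mmp7, the activating protease, read 8.86, 8.94 and 8.90 in the deleted replicates and 10.93, 10.08 and 11.14 in the controls. Its difference was −1.82 (SE 0.25, limma adjusted p = 0.0349), with the wide control spread coming from replicate 2. Ern2, a sensor of stress in the endoplasmic reticulum of secretory cells, fell by 1.13. Bhlha15, a transcription factor of secretory cells, stood at −1.13 (adjusted p = 0.0609, with its second probe set at −0.19), and the receptor of bacterial lipopolysaccharide, Tlr4, at 0.78 (adjusted p = 0.11), both without passing.

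Of the genes that set the Paneth fate, limma called 2 of 10 lower and 0 higher, and 8 did not pass (median −0.57). Of the 10, 6 had an unadjusted p under 0.05 in limma, against 6357 of all 45037 probe sets. The 2 called were Sox9 and Atoh1. Sox9, a transcription factor required for Paneth cells, stood at −0.87 (limma adjusted p = 0.0371, other probe sets −0.86 and −0.36). Atoh1, which commits cells to the secretory lineages, stood at −0.84 (limma adjusted p = 0.0382). Spdef, which acts in the maturation of goblet and Paneth cells, and Ephb3, the receptor that keeps Paneth cells at the crypt base, stood at −0.80 and −0.68 without passing.

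On a separate list of antimicrobial peptides and proteins, outside both the alpha-defensins and the Paneth granule effectors above, no gene was called. Of 10 measured (median −0.043), limma called 0, with 1 at an unadjusted p under 0.05, against 6357 of all 45037 probe sets. Levels averaged 3.98 to 4.35 in the deleted arrays and 4.07 to 4.71 in the controls. Retnlb, a resistin-like protein of goblet cells, had the largest difference, with 3.45, 3.81 and 3.58 in the deleted replicates against 6.72, 4.34 and 8.02 in the controls (limma adjusted p = 0.195). The next 3 by p, lactoferrin (Ltf), the beta-defensin Defb2 and lipocalin 2 (Lcn2), stood at 0.26, −0.14 and −0.12.

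**Figure D4:**
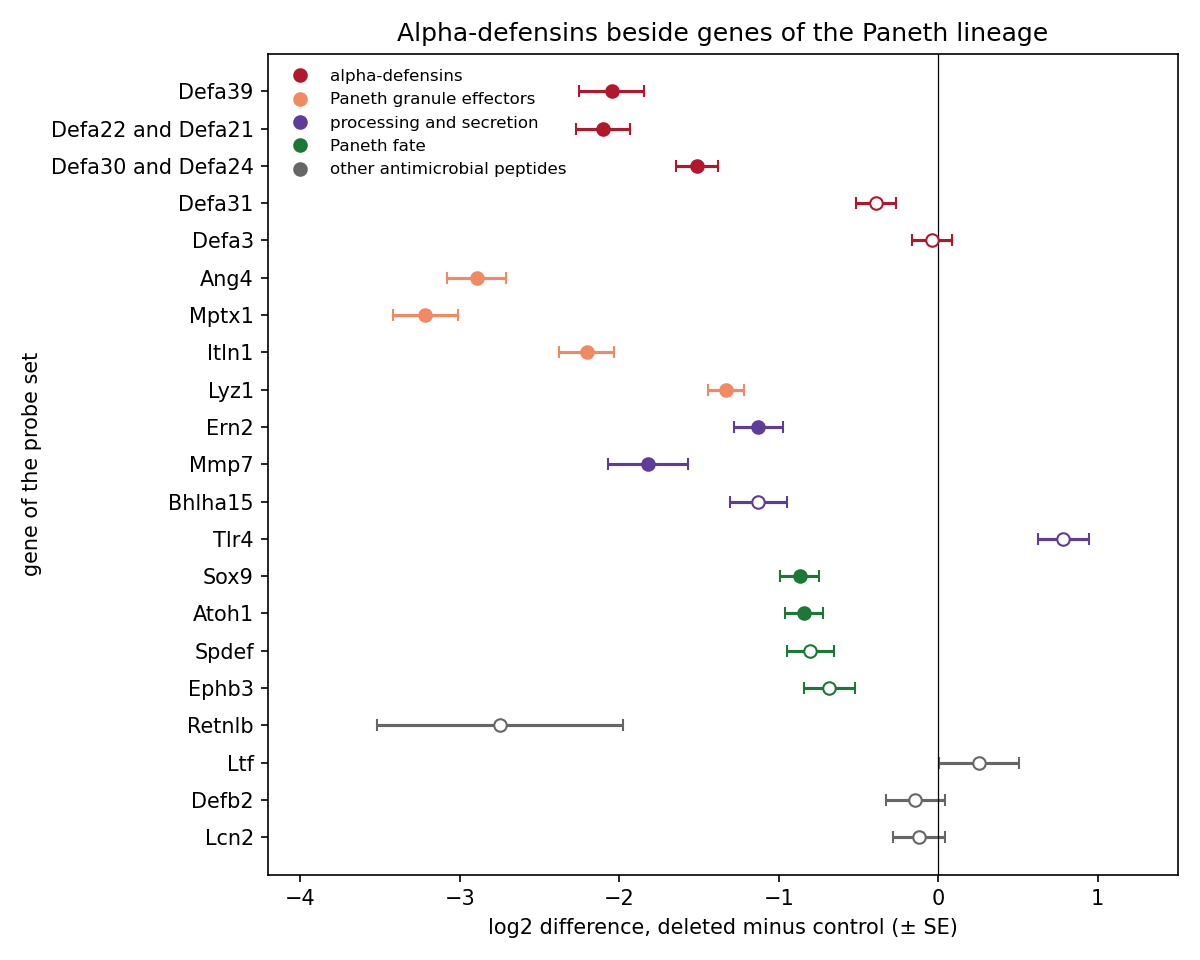
Log2 difference, deleted minus control, with its standard error (horizontal axis) for the 5 alpha-defensin probe sets and named genes of 4 lists; filled points passed adjusted p of 0.05 in limma and open points did not. The bright alpha-defensins lie between Lyz1 at −1.33 and Itln1 at −2.20, and Mptx1 at −3.22 is the lowest. From each list up to 4 genes with the smallest p are drawn, so Pla2g2a, Reg3g and Reg3b are not.

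Genes that flank the cluster on chromosome 8 were not called. Of the 10 nearest measured protein-coding genes on each side, 20 in all and 14 of them beta-defensins, 0 passed in limma. Differences ran from −0.29 to 0.42, with a smallest adjusted p of 0.277 (limma). At an unadjusted p under 0.05 was 1 of the 20, against 6357 of all 45037 probe sets. The 14 beta-defensin probe sets had group means between 1.84 and 5.33, so they were dim in both groups.

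Genes whose 6 values ran most like those of the alpha-defensins were sought by the root mean square difference between profiles centred on their means, with 1 probe set per gene. Against the mean profile of the 5 alpha-defensin probe sets, whose own root mean square was 0.62 log2 units, Lyz1 was nearest at 0.078, followed by Tceal9 (0.097), Myrip (0.13), the glucagon precursor Gcg (0.14) and Lrrc26 (0.14). Against Defa30 and Defa24, the brightest probe set, Lyz1 was again nearest at 0.11, followed by Lyz2, Hpd, Samd5 and the carbonic anhydrase relative Car8 at 0.13 to 0.19. Lyz2 is nearly identical to Lyz1, and cross-binding of its probes to Lyz1 was not tested. These are likenesses over 6 arrays in 2 groups, and any gene with a difference of that size comes near.

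Markers of other cells moved in part with the defensins. Among 11 goblet genes limma called 4 lower and 0 higher (median −0.80), Ccl6 at −1.85 and Spink4 at −1.13 among them. Of the 11, 8 had an unadjusted p under 0.05 in limma, against 6357 of all 45037 probe sets. Atoh1, which was among the 4 called, and Spdef are also on the Paneth fate list. The mean level of the goblet genes was 10.86 to 10.98 in the deleted arrays and 11.65 to 11.71 in the controls. Among 10 enterocyte genes, Rbp2 (0.97), a retinol-binding protein, was the 1 called higher and 0 were lower (median 0.21), at 12.73 to 12.83 in the deleted arrays and 12.44 to 12.55 in the controls. Of these 10, 4 had an unadjusted p under 0.05 in limma. Among 12 enteroendocrine genes 1, Gcg, was called lower by limma (median −0.28), and 5 had an unadjusted p under 0.05. Of 8 stem cell genes (median −0.44) and 6 tuft cell genes (median −0.29), limma called 0, with 5 and 3 at an unadjusted p under 0.05. Neutrophil genes were dim, with a mean over 8 genes of 3.94 to 4.58 in the deleted arrays and 3.89 to 4.09 in the controls, and limma called 0 (0 at an unadjusted p under 0.05). Of 8 B and plasma cell genes limma called 0, with 2 at an unadjusted p under 0.05 (median −0.63), with control replicate 3 at 6.39 and the other arrays at 4.85 to 5.22. Further lists were macrophages, T cells, mast cells, endothelium, fibroblasts and muscle, pancreas and red blood cells. Of their genes, limma called 1 higher, Mrc1 of macrophages, and 0 lower. An unadjusted p under 0.05 was seen in 2 macrophage, 2 fibroblast and muscle, 1 mast cell and 1 pancreas gene. It was seen in 0 T cell, endothelial and red blood cell genes. The part of these other cell types in the fall of the alpha-defensins was not tested.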

How the data were processed

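Expression was measured on 6 arrays, 1 per animal. The authors deposited log2 values made with RMA, per the submitters' processing notes. The sources used here give no RMA version, settings or genome build. Values ran from 1.13 to 14.1. Of 45101 probe sets, 64 manufacturer's controls were left out. Of the 45037 tested, 34945 had 1 gene in the platform annotation, which can be old, 932 several and 9160 none. All 7 alpha-defensin genes matched RefSeq by Entrez number.

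Deleted minus control was fitted on all 45037 probe sets with limma 3.58.1 in R 4.3.3 (lmFit, then eBayes; two-sided; no covariates), adjusted by Benjamini-Hochberg, threshold 0.05. Replicates are biological per the labels, and precision is limited by having 3 arrays per group. In simulated data of this comparison, with 200 of 45037 probe sets changed, 57.1% of changes of 1 log2 unit and 95.5% of 2 were recovered. Single values were compared by exact permutation (scipy 1.17.1), and upstream sequences were aligned with Biopython 1.88.

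The members and the 19 gene lists, with 173 of 197 entries measured, were chosen with earlier results of these data known. List genes have 1 probe set each, the one with the highest mean among those annotated to that gene alone. Named are all alpha-defensin probe sets, up to 4 genes with the smallest p of each Paneth and antimicrobial list, Mmp7 and Lyz1, up to 2 of each other list, and the 5 nearest profiles. Casp8, Pla2g2a, Reg3g, Reg3b and both unnamed probe sets are named outside this rule, the last 5 after their values were seen. Alternatives were the replicate block, dim probe sets left out, other variance priors, array weights, centring, a repeated quantile normalization, 1 probe set per gene, leaving out arrays, the Gapdh difference as a covariate and, chosen after seeing the data, scaling to the spiked controls.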

Additional observations from a re-analysis of the deposited data

How the results depend on the processing

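The falls of the 3 bright probe sets kept their direction under every alternative run, at −2.26 to −1.83 for Defa39, −2.25 to −1.95 for Defa22 and Defa21 and −1.59 to −1.44 for Defa30 and Defa24, apart from scaling to the spiked controls. Subtracting each array's spiked control mean, chosen after seeing the data, moved the median of all probe sets to 0.92, and called 33702 of them, 51 lower and 33651 higher. Differences were then −1.14, −1.20 and −0.61, the last no longer called (limma adjusted p = 0.111), while Defa31 and Defa3 turned to 0.52 and 0.87; by construction it shifts every difference by the same amount.

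The 3 calls held with the replicate block (limma adjusted p = 0.0135 to 0.0177), which called 112 probe sets. Deviations of same-numbered arrays from their group means correlated at 0.074, 0.084 and −0.055. With 3 arrays per group, these values cannot show whether the replicate numbers pair animals. With the Gapdh covariate 0 of the 3 were called (−1.99, −2.15 and −1.54), and without control replicates 1 and 2 also 0 (−2.01, −2.13 and −1.50, adjusted p = 0.423 to 0.711, with 1 control array left and assumed to vary like the others); Defa3 turned to 0.036 and 0.040 there. Leaving out 1 array in turn gave 0 to 3 calls, with Defa3 at −0.092 to 0.050, Defa31 at −0.48 to −0.32, Defa39 at −2.26 to −1.83, Defa22 and Defa21 at −2.25 to −1.95 and Defa30 and Defa24 at −1.59 to −1.44. The members called were 1 with 1 probe set per gene, where the probe sets of several genes are not tested, 1 without _x_at and _s_at probe sets and 1 with single-gene probe sets.

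Over all probe sets, 143 were called (95 lower). This was 277 (156 lower) without dim probe sets, 242 (139 lower) with the trended robust prior, 1180 (587 lower) with array weights, 26 (21 lower) with the Gapdh covariate, 1 (1 lower) without control replicates 1 and 2, and 18 to 190 (12 to 123 lower) without 1 array. The alpha-defensins relative to the granule effectors stood at 0.54, at 0.36 against Lyz1 and Mmp7 alone, at 0.94 with single-gene probe sets, at −0.13 with the 3 bright ones and at 0.46 to 0.63 without 1 array. The causes were not tested. Precision is limited by 3 arrays per group, and the dim Defa31 and Defa3 by their low signal.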
